A study of Mus musculus with 6 samples.

Results

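The glypicans and syndecans are the 2 main families of heparan sulfate proteoglycans held at the cell surface. All gene rows of the deposited table with the symbols Gpc1 to Gpc6 and Sdc1 to Sdc4 were taken, which gave 10 of 24413 genes, 6 glypicans and 4 syndecans. RNA was sequenced from W-EGFP cells, which are testicular interstitial cells of FLE-EGFP mouse fetuses (E16.5). These mice carry EGFP under an Nr5a1 enhancer that is active in fetal Leydig cells. Samples of 10000 cells received either the vehicle DMSO (3 libraries) or 0.5 µM SAG (3 libraries), an agonist of Smoothened, the membrane protein that passes on the Hedgehog signal. Per the labels the exposure lasted 1 hour in both groups. The sources used here do not give the strain background, how many animals made up a sample or how long cells were cultured. The column names of both groups carry the element "siCnt", which the labels do not explain, so a treatment shared by both groups cannot be told from them. The question was which transcripts differ in these cells when Smoothened is activated, and here it is put to the proteoglycans that present and hold secreted ligands.

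A glypican is a compact core protein tied to the outer membrane leaflet by a lipid anchor, and a syndecan crosses the membrane once and has a short cytoplasmic tail. Both carry long sulfated sugar chains of heparan sulfate, which bind FGFs, Hedgehog proteins, Wnts, BMPs and many other secreted factors, and so act as co-receptors or as traps. Glypicans are best known as regulators of morphogens: Gpc3 binds Hedgehog ligands in competition with their receptor Patched and restrains tissue growth, whereas Gpc4 is known for roles in Wnt and FGF signalling. Syndecans are best known for linking matrix and growth factors to the actin cytoskeleton, and their outer parts can be shed by proteases.

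Expression is given as the deposited signal, which is named as CPM but has a further factor per library in it. The signals of a library sum to 1042580 to 1055620 in DMSO and to 932712 to 988299.6 in SAG. Errors after ± are SD over the 3 libraries of a group. Depth was 18486396 to 25491259 reads in DMSO and 7694479 to 8804335 in SAG, so that DMSO libraries were 2.67 times as deep on average. Depth thus split by group, and a difference in library preparation between the groups cannot be told apart from the treatment. SAG replicate 3 stood apart: ribosomal Rn45s took 1.67% of its reads, and 0.326% to 0.360% in the other libraries. For the members, results that rest on SAG replicate 3 are given with and without it. Means and folds of other genes include it unless stated otherwise, and some of them, such as B3galt6, B3gat3 and Col3a1, were highest in it. The treatment was visible in Gli1, the standard Hedgehog target, at signals of 0.704, 0.324 and 0.846 in DMSO and 32.6, 46.3 and 30.8 in SAG. Nr5a1, the gene whose enhancer drives EGFP, lay at 116 to 124 in DMSO and 98.8 to 108 in SAG. The summed signal of 10 interstitial markers was 695 to 703 in DMSO and 1253 to 1445 in SAG, with 6 of the 10 higher by the test used below. Of 13 peritubular myoid and vascular smooth muscle markers 12 were tested, 10 fell and 1, Notch3, rose, and their summed signal was 23703 to 24795 in DMSO and 14929 to 16758 in SAG. The 8 erythroid genes together reached at most 0.508, and 4 of 8 germ cell genes were listed at 0 in every library. Marker sums of other cell types were low and rested on few genes. The sum of 7 Sertoli markers was 38.1 to 47.5, of which Sox9 gave 23.2 to 34.2, while Amh, Ptgds and Cst9 reached at most 1.54. The sum of 9 endothelial markers was 31.8 to 50.2, of which Cdh5 gave 25.1 to 43.8. Cldn5 was listed at 0, and Pecam1, Tie1, Tek, Esam and Plvap reached at most 1.80. The 10 macrophage markers summed to 1.17 to 3.62. Of 9 epithelial markers 5 were tested and 3 fell (Lrrn4, Krt8 and Krt18), with sums of 19.5 to 30.9 in DMSO and 11.9 to 13.6 in SAG. Of the 8 fetal Leydig markers Lhcgr was listed at 0, and Cyp17a1, Insl3, Hsd17b3 and Ren1 reached at most 1.24 in any library. Star lay at 23.9 to 25 in DMSO and at 12.0, 11.2 and 50.7 in SAG replicates 1 to 3. Cyp11a1 was at 6.87 to 8.63 in DMSO and at 7.25, 5.61 and 33.9 in SAG. Hsd3b1 was at 0 to 0.370 in DMSO and at 3.73, 2.01 and 30.8 in SAG. It was called higher but passed the filter only through the SAG libraries. In RNA from whole samples fewer cells of a type and less RNA per cell cannot be told apart.

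Genes were tested with limma on log2(signal + 1) over the 12550 genes whose mean signal reached 1, and passed when the p adjusted by Benjamini-Hochberg was under 0.05. SAG was higher in 12.9% of these genes and lower in 16.6%, together 29.6%. Of the 10 members 9 were tested, and Gpc5 was under the filter. One glypican, Gpc3, rose, while the glypican Gpc4 and the syndecans Sdc2 and Sdc3 fell, and the other 5 tested members did not pass. The libraries of the 2 groups did not overlap for 6 of the 9 tested members, 5 of them lower and 1 higher in SAG, against 48.0% of all genes tested (21.2% higher and 26.8% lower), and the median log2 fold change of the 9 was -0.12 against -0.03 for all. With 9 genes, no excess over that background is claimed, and the members are described one by one.

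**Figure D1:**
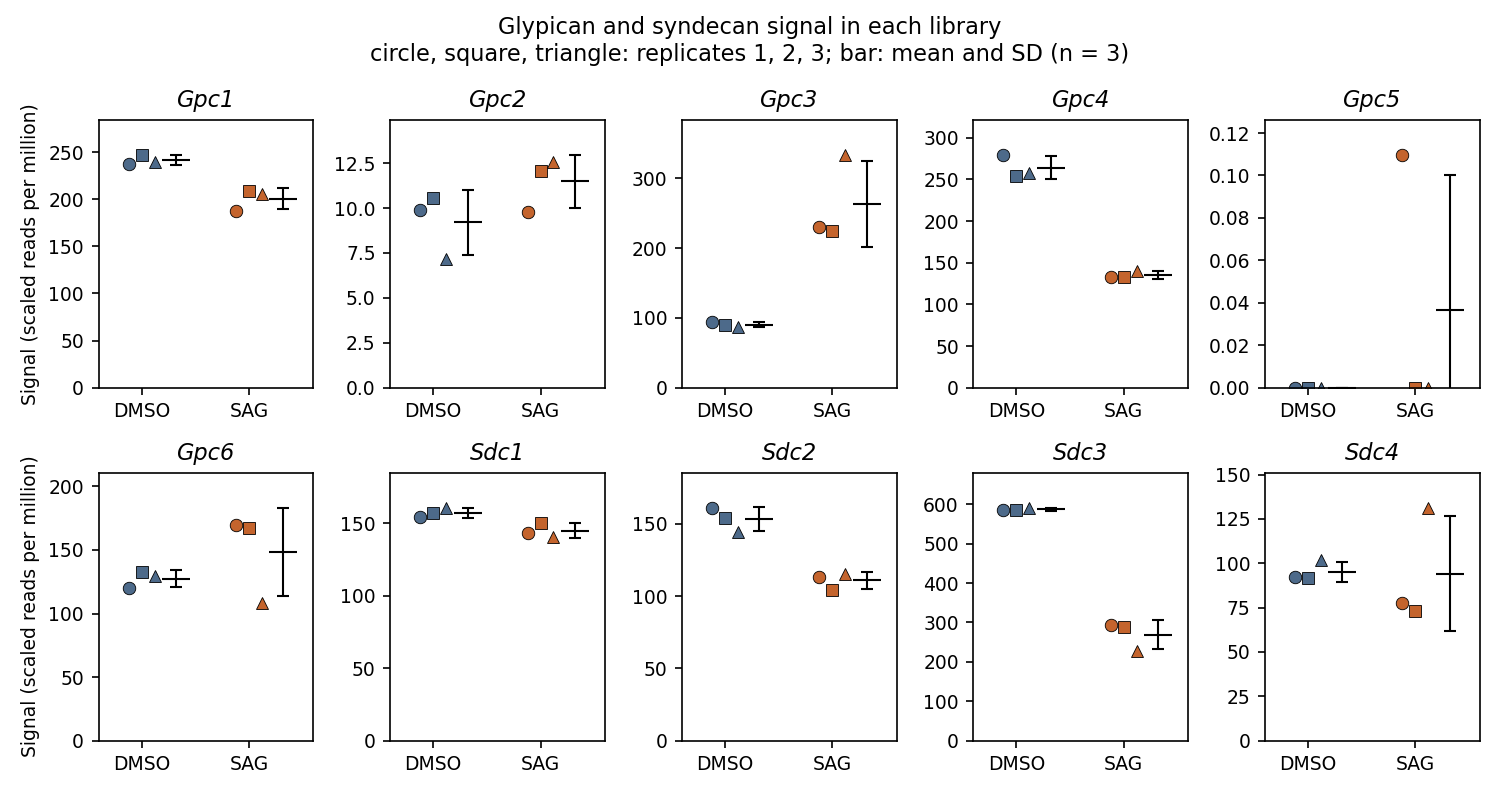
Deposited signal of the 10 glypican and syndecan genes (vertical axis, linear from 0, 1 panel per gene) in each of the 6 libraries, with DMSO in blue, SAG in orange, symbols for replicates 1 to 3 and bars for the group mean and SD. The SAG points of Gpc3 (224 to 334) lie above all its DMSO points (86.4 to 93.8), and the SAG points of Gpc4, Sdc2 and Sdc3 lie below theirs.

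The stretch just before the start site is shown for the member with the largest change in each direction, Gpc3 and Sdc3, so that their sequence can be set beside their opposite changes. Both are the 250 bases before the start, read 5′ to 3′ on the gene's strand from RefSeq on GRCm38.p6. Capitals mark each match to the GC box GGGCGG on either strand, the core letters bound by Sp-family factors. The Gpc3 stretch is chrX:52613975-52614224 on the minus strand, and the Sdc3 stretch is chr4:130792287-130792536 on the plus strand.
Gpc3: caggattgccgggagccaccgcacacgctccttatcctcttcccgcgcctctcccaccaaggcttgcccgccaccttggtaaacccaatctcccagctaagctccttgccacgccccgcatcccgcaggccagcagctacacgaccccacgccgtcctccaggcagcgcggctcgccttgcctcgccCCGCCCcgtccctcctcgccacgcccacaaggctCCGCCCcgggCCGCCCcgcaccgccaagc
Sdc3: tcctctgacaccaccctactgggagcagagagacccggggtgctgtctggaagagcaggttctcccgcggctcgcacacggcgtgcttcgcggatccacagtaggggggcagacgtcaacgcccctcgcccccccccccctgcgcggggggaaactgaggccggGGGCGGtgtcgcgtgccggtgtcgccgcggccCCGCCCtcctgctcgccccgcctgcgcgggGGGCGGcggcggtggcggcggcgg
Each holds 3 GC boxes, and at least 1 such box was found in 32.7% of the 32851 RefSeq stretches of the same length. Among the other members with a stretch, Gpc2 and Sdc1 hold 3, Sdc4 holds 4, and Gpc4 and Gpc5 hold 1 each. Both are rich in G and C, at 71.6% and 76.4% against a median of 52.4%, and in CpG pairs, at 25 and 32 against a median of 6. The gene that rose and the gene that fell therefore looked alike in these features. RefSeq gave such a stretch for 7 of the 10 members (Gpc2, Gpc3, Gpc4, Gpc5, Sdc1, Sdc3 and Sdc4). The GLI binding motif GACCACCCA, searched on both strands, was in none of the 7 and in 0.225% of all stretches. It was absent from those of the Hedgehog targets Ptch1 and Hhip as well. The closest match among the members was in Sdc1, a gene that did not pass the test, with 1 mismatch. TATAAA was found in Gpc5 alone of the 7 and in 12.4% of all stretches.

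Gpc3 is the glypican whose loss in people causes an overgrowth syndrome and which binds Hedgehog ligands directly. Its gene lies on the X chromosome at 52272426-52613950 (GRCm38, minus strand). Its signal was 93.8, 90.2 and 86.4 in DMSO replicates 1 to 3 and 230, 224 and 334 in SAG replicates 1 to 3. Every SAG library was above every DMSO library, and the highest was SAG replicate 3. Gpc3 rose 2.91-fold, from 90.2 ± 3.72 to 263 ± 61.7 (SD, n = 3), a log2 fold change of 1.51 (SE 0.15, 95% interval 1.17 to 1.84, limma adjusted p = 1.48e-04). Without SAG replicate 3 the rise was 2.52-fold. Among all tested genes its log2 fold change stood at percentile 98.7. Of the 10 interstitial markers described above 6 were higher in the same libraries, and 1 of these, Ptch1, is itself a Hedgehog target. Nr5a1 and Lhx9 were lower in every SAG library without passing, and Wt1 and Gata4 overlapped between the groups. The part of these markers in the Gpc3 result was not tested.

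Gpc4 lies next to Gpc3, at 52053021-52165252 of the X chromosome on the same strand, and 107173 bases separate the pair. It moved the other way. Its signal was 280, 254 and 258 in DMSO and 133, 133 and 140 in SAG, so that all 3 SAG libraries were below all 3 DMSO libraries and close to each other. Gpc4 fell 1.95-fold, from 264 ± 13.8 to 135 ± 4.29, a log2 fold change of -0.96 (SE 0.09, limma adjusted p = 1.23e-04), and without SAG replicate 3 it fell 1.99-fold. Of 12 tested smooth muscle markers 10 were lower and Notch3 was higher in the same libraries in which Gpc4, Sdc2 and Sdc3 were lower. The part of these markers in those results was not tested.

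The protein-coding genes within 1000000 bases of the pair were read to show what else lay there. Of the tested ones, Hs6st2, a sulfotransferase that adds sulfate to the 6-O position of heparan sulfate, was the only other gene that passed. Its start lies at -483 kb from the Gpc4 start in chromosome coordinates, and it fell 2.12-fold, with signals of 353, 367 and 347 in DMSO and 165, 159 and 179 in SAG (limma adjusted p = 7.01e-05). Mbnl3, Ccdc160, Phf6, Hprt, Fam122b and Mospd1 did not pass, with adjusted p from 0.208 to 0.949. Along the chromosome the order was Hs6st2, Gpc4 and Gpc3, of which the first pair fell and the last rose.

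**Figure D2:**
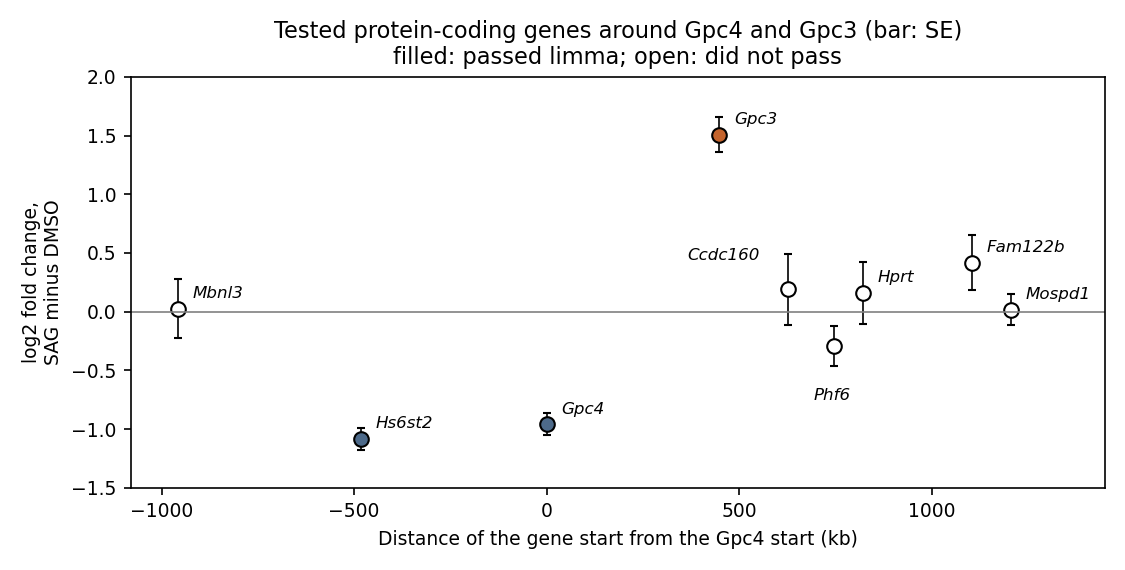
Log2 fold change of SAG against DMSO (vertical axis, bars are SE) for the tested protein-coding genes around Gpc4 and Gpc3, placed by the distance of their start from the Gpc4 start in kb (horizontal axis). Filled points passed limma: Gpc3 at 1.51 is above 0, and Gpc4 at -0.96 and Hs6st2 at -1.08 are below it.

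The other glypicans did not pass. Gpc1, the glypican best known in FGF signalling of the nervous system and in endothelial mechanosensing, was at 237, 247 and 240 in DMSO and 187, 208 and 206 in SAG. The groups did not overlap, and the mean was 1.20-fold lower in SAG, at 200 ± 11.4 against 241 ± 5.34. It missed the threshold (log2 fold change -0.27, 95% interval -0.47 to -0.06, limma adjusted p = 0.0519), and it passed without SAG replicate 2 or SAG replicate 3, at adjusted p = 0.0463 and 0.0015. Without any 1 DMSO library or SAG replicate 1 it did not pass (adjusted p up to 0.194). Scaled by library total, its log2 fold change was -0.13 (limma adjusted p = 0.327). Its antisense neighbour Ankmy1, which overlaps its exons, had a signal of at most 0.620. Gpc6, which promotes Hedgehog signalling in bone growth, was at 120, 133 and 129 in DMSO and 170, 167 and 108 in SAG. SAG replicates 1 and 2 were above the DMSO libraries and SAG replicate 3 was below them, so the groups overlapped. Its log2 fold change was 0.19 (95% interval -0.18 to 0.56, limma adjusted p = 0.416). Without SAG replicate 3 the rise was 1.32-fold and passed, at adjusted p = 8.54e-05.

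Gpc2, a glypican of developing neurons, was the lowest of the tested members, with 89 to 239 reads in a library. Its signal was 9.90, 10.5 and 7.16 in DMSO and 9.78, 12.1 and 12.6 in SAG, and the groups overlapped. Its log2 fold change was 0.30, with a 95% interval of -0.11 to 0.71 (limma adjusted p = 0.239), so that the size of any change is known only loosely. In the annotation Gm43720 shares exon bases with Gpc2 on the same strand, so part of this signal is uncertain. Gpc5, which binds Hedgehog ligands and promotes their signalling, had 0 of 66766734 reads in DMSO and 1 of 25017663 in SAG, an exact Poisson interval of 0.0253 to 5.57 reads. With 3 reads as the limit a count of 0 allows, a level of up to 0.0449 CPM was not detectable in the DMSO libraries together. Its gene spans 1432965 bases and lies 400135 bases from Gpc6, so these neighbours on chromosome 14 also differed, in level: one was expressed and the other was at the edge of detection.

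Among the syndecans Sdc3, known from nerve and muscle where it binds the growth factor pleiotrophin, changed most. It lies on chromosome 4 at 130792537-130826319. Its signal was 585, 586 and 592 in DMSO and 293, 288 and 227 in SAG. The DMSO libraries differed by little, and all SAG libraries were far below them, the lowest being SAG replicate 3. Sdc3 fell 2.18-fold, from 588 ± 3.73 to 269 ± 36.8, a log2 fold change of -1.13 (SE 0.11, limma adjusted p = 1.61e-04), and fell 2.02-fold without SAG replicate 3. It was at percentile 1.71 of the log2 fold changes of all tested genes. In the annotation the antisense genes Gm12970 and Gm26716 overlap its exons. Neither is a row of the table, and the strand setting of the counting is not known.

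Sdc2, the syndecan of mesenchymal cells, was at 161, 154 and 145 in DMSO and 113, 104 and 115 in SAG. The groups did not overlap. It fell 1.38-fold, from 153 ± 8.39 to 111 ± 5.71 (log2 fold change -0.46, SE 0.10, limma adjusted p = 0.00693). This call was lost without DMSO replicate 1, at adjusted p = 0.0528.

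Sdc1, the syndecan of epithelia and plasma cells, was at 154, 157 and 161 in DMSO and 144, 151 and 140 in SAG, values that do not overlap but differ by little. Its log2 fold change of -0.12 did not pass (95% interval -0.32 to 0.08, limma adjusted p = 0.345). Sdc4, the syndecan of focal adhesions, was at 92.4, 91.5 and 102 in DMSO and 77.8, 73.3 and 131 in SAG. SAG replicates 1 and 2 were below the DMSO libraries and SAG replicate 3 was above them. Its log2 fold change was -0.07 (95% interval -0.51 to 0.38, limma adjusted p = 0.828), and without SAG replicate 3 it was 1.26-fold lower in SAG and passed at adjusted p = 0.00214.

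Sdc4 and Gpc6 thus pointed in opposite directions in SAG replicate 3 and in the other SAG libraries. That library also held the highest summed signal of the adrenocortical markers, 74.6 against 4.56 and 7.80 in the other SAG libraries and 1.86 to 2.43 in DMSO, with none of the 5 at 0 in every library. Cyp21a1 was listed at 0 in DMSO and at 2.64, 1.80 and 35.3 in SAG, and Akr1b7 was at 0 to 0.113 in DMSO and at 0.879, 1.27 and 12.8 in SAG. The summed fetal Leydig markers were also highest in that library, at 116. In the other SAG libraries that sum was 19.1 and 23.0, below the 32.6 to 33.9 of DMSO, unlike the adrenocortical sum. In SAG replicate 3 Star (50.7), Cyp11a1 (33.9) and Hsd3b1 (30.8) made up nearly all of it. There Insl3 was at 0.257 and Hsd17b3 at 0.128, and Cyp17a1, Lhcgr and Ren1 were listed at 0. So the split ran within the Leydig markers. The part of these adrenocortical and Leydig markers in the results was not tested. Without that library, 46.6% of genes passed instead of 29.6%. Among the members Gpc3 and Gpc6 then rose, and Gpc1, Gpc4, Sdc2, Sdc3 and Sdc4 fell.

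**Figure D3:**
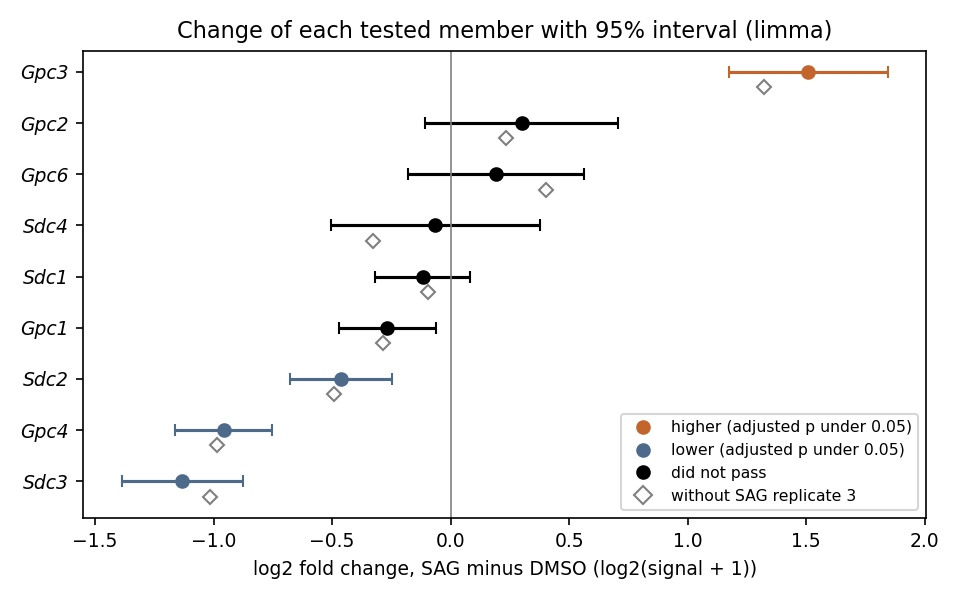
Log2 fold change of SAG against DMSO for the 9 tested members (horizontal axis), as filled points with 95% intervals for all 6 libraries and open diamonds without SAG replicate 3. Gpc3 lies at 1.51 and Sdc3 at -1.13 with all libraries, and the diamonds of Gpc6 and Sdc4 lie farther from 0 than their points.

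Levels of different genes were compared as signal per kilobase of the union of exons in GENCODE M21. In DMSO the order was led by Gpc4 at 99.6 ± 5.2 and Sdc3 at 98.1 ± 0.622 per kilobase, whose library ranges overlapped. Gpc1 followed at 46.8 ± 1.04, then Sdc2 at 43.5 ± 2.38 and Sdc1 at 41.3 ± 0.895, which overlapped each other. Sdc4 at 37.4 ± 2.24 and Gpc3 at 33.5 ± 1.38 came next, then Gpc6 at 19.8 ± 1.05 and Gpc2 at 2.15 ± 0.420, with Gpc5 at 0. Gpc4 and Sdc3 thus each led their family in DMSO. In SAG the order was headed by Gpc3 at 97.7 ± 22.9 per kilobase, followed by Gpc4 at 51.0 ± 1.62 and Sdc3 at 45.0 ± 6.14. Gpc1 at 38.9 ± 2.2, Sdc1 at 38.0 ± 1.36, Sdc4 at 37.0 ± 12.7 and Sdc2 at 31.5 ± 1.62 came next, and neighbours from Sdc3 down to Sdc2 overlapped. Gpc6 at 23.1 ± 5.44 and Gpc2 at 2.69 ± 0.350 were at the low end. The order depends on the length used. With the longest transcript Sdc3 lay above Gpc4 in DMSO (118 against 99.6) and in SAG (54.2 against 51.0). In DMSO Sdc1 (49.8) then lay above Sdc2 (43.5), and Gpc3 (40.7) above Sdc4 (38.7), and in SAG Gpc6 (35.8) lay above Sdc2 (31.5).

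The makeup of each family was then described as shares of its summed signal per kilobase in each library. The glypican sum was 207, 200 and 198 in DMSO and 201, 203 and 237 in SAG. Within it Gpc3 held 16.8%, 16.7% and 16.2% in DMSO and 42.6%, 41.1% and 52.5% in SAG. Gpc4 held 50.9%, 47.8% and 49.2% in DMSO and 22.4% to 25% in SAG. The leading glypican transcript was Gpc4 in every DMSO library and Gpc3 in every SAG library. The ratio of Gpc3 to Gpc4 per kilobase was 0.331, 0.350 and 0.330 in DMSO and 1.71, 1.66 and 2.35 in SAG.

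The syndecan sum was lower in all SAG libraries, at 149, 146 and 159 against 220, 219 and 222 in DMSO. Sdc3 held 44.4%, 44.8% and 44.5% of it in DMSO and 32.8%, 32.9% and 23.8% in SAG. Sdc4 held 16.4% to 18.0% in DMSO and 20.5%, 19.7% and 32.4% in SAG, so it was the leading syndecan in SAG replicate 3, where Sdc3 led in the other 5 libraries. Sdc1 held 18.4% to 19.0% in DMSO and 23.2% to 27.1% in SAG, although its own level did not pass the test. A share moves with the other members of the sum, and no test was made of the shares.

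**Figure D4:**
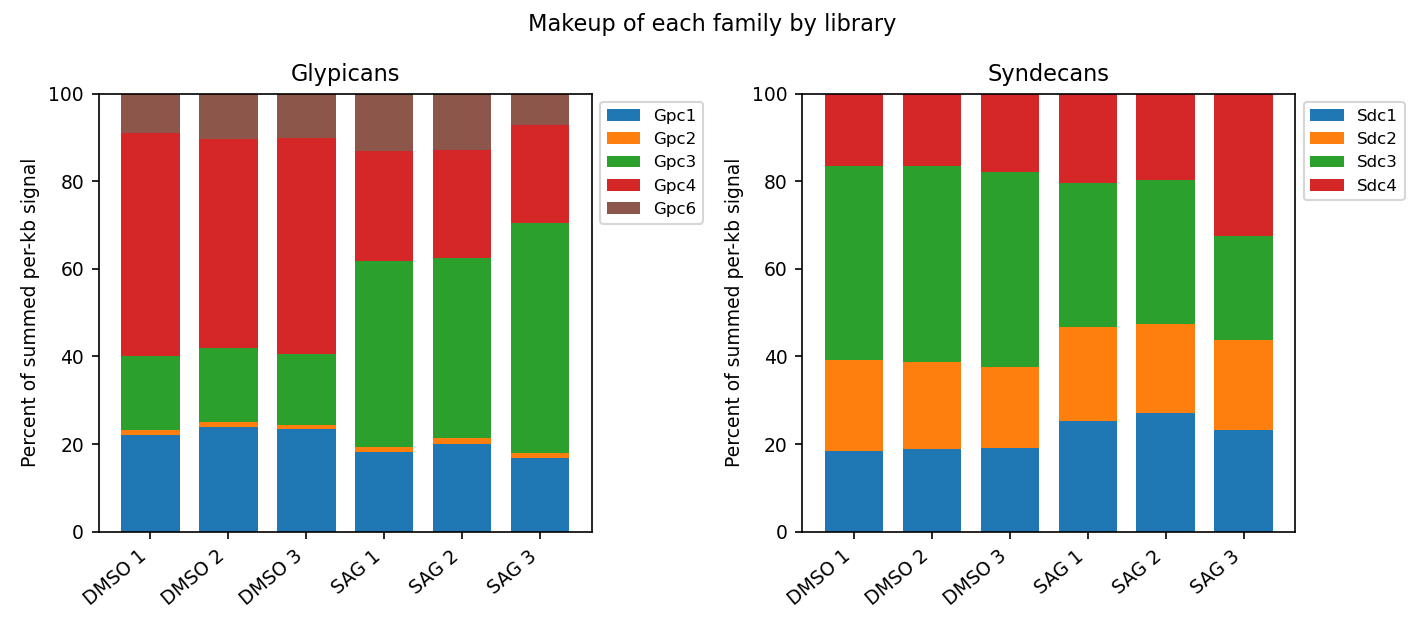
Share of the summed signal per kilobase (vertical axis, percent) held by each member of the glypicans and of the syndecans in each of the 6 libraries, as stacked bars from 0 to 100, with Gpc5 left out as too small to draw. Gpc4 is the widest glypican band in the 3 DMSO libraries and Gpc3 in the 3 SAG libraries, and the Sdc3 band is narrower in SAG.

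Genes most like the leading members were found by the distance between centred log2(signal + 1) profiles over the 6 libraries. Nearest to Gpc3 were Ifitm1, at a distance of 0.181, Sepp1 at 0.191 and Col3a1 at 0.261. Ifitm1 was listed at 0 in all DMSO libraries and had a mean signal of 2.05 ± 0.567 in SAG, from 15 to 21 reads in a library. It reached the mean signal of 1 only through the SAG libraries. With 0 in DMSO, its closeness to Gpc3 is set by the 1 added to each signal, so it is given as a description only. Col3a1, which encodes a fibrillar collagen, was at 3556 ± 180 in DMSO and 9903 ± 3002 in SAG. Nearest to Sdc3 were Nexn at 0.0730, Timp3 at 0.103 and Vcl at 0.112, where Nexn and Vcl encode proteins of actin and its membrane anchors. These distances describe 6 libraries in 2 groups, and many genes that differ between the groups by a like amount will lie close.

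The machinery that builds the chains on these core proteins was read from the same fit. Counts in this and the following lists stand beside 12.9% higher and 16.6% lower among all genes tested. No list was tested as a set. Of 11 tested genes for the linker and the polymerase, 2 rose and 2 fell. Ext1, a subunit of the polymerase that makes heparan sulfate, fell 1.71-fold, from 460 ± 9.98 to 269 ± 23.9 (limma adjusted p = 5.56e-04). Xylt1, which adds the first sugar to the core protein, fell 2.68-fold, from 17.2 ± 2.13 to 6.41 ± 2.30 (limma adjusted p = 0.00219). B3galt6 and B3gat3, enzymes of the linker, rose from 8.85 ± 1.08 to 16.0 ± 4.59 and from 35.6 ± 3.34 to 52.0 ± 8.69, and both calls were lost without DMSO replicate 2 or DMSO replicate 3, with limma adjusted p of up to 0.0817 and 0.0988. The median log2 fold change of the 11 was -0.01.

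Of 8 tested genes that modify the chains, Hs6st2 fell, 7 did not pass and none rose. Without SAG replicate 3, 5 of them fell and 1 rose, in a setting where 46.6% of all genes passed. Hs6st1, which makes the same modification as Hs6st2, was at 161 to 179 in DMSO and 188 to 224 in SAG and did not pass (limma adjusted p = 0.080); it is named here after its values were seen. Of 10 tested genes that supply sugars and sulfate, Papss1 rose, Papss2, Slc35a3 and Slc26a2 fell, and 6 did not pass. Papss1 and Papss2 both make the sulfate donor PAPS, and they differed in direction, with Papss1 at 68.6 ± 2.51 in DMSO and 86.8 ± 0.935 in SAG and Papss2 at 50.1 ± 3.76 and 33.8 ± 2.91. Each of these 4 calls depended on single libraries. Papss1 lost it without any 1 DMSO library or SAG replicate 1 (adjusted p up to 0.125), Papss2 without DMSO replicate 3 (0.0520), Slc35a3 without any 1 DMSO library or SAG replicate 2 (up to 0.167) and Slc26a2 without DMSO replicate 1 or 2 (up to 0.10). The highest of that list, Ugdh, which makes the glucuronic acid donor, did not pass (84.1 ± 3.57 and 92.7 ± 8.59).

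Of 3 tested enzymes that edit chains outside the cell, 1 was called higher and 1 lower. Sulf1, which removes 6-O sulfate from finished chains, fell 2.36-fold, from 16.4 ± 3.01 to 6.96 ± 2.14 (limma adjusted p = 0.00578). Its relative Sulf2 did not pass, at 271 ± 1.82 and 285 ± 59.6 (limma adjusted p = 0.802), but rose without SAG replicate 3 (adjusted p = 0.0184). Heparanase, Hpse, which cleaves the chains, was at 0.487 ± 0.0585 in DMSO and 2.22 ± 0.309 in SAG. It reached the mean signal of 1 only through the SAG libraries, so its call (limma adjusted p = 0.00525) is given as a description. Naglu, an enzyme of lysosomal heparan sulfate breakdown, rose from 37.0 ± 5.82 to 51.0 ± 1.99 (limma adjusted p = 0.0251), a call lost without DMSO replicate 2, DMSO replicate 3 or SAG replicate 2 (adjusted p up to 0.124).

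Of 11 tested genes that cut, shed or process core proteins, or hold such enzymes in check, 1 rose and 3 fell. Pcsk5, a proprotein convertase of the family that processes glypican cores, rose 2.74-fold, from 12 ± 1.74 to 32.9 ± 4.94 (limma adjusted p = 3.54e-04). Adam10, a membrane sheddase, fell 1.83-fold, from 226 ± 4.38 to 123 ± 14.9 (limma adjusted p = 5.56e-04). Mmp14, a membrane-bound matrix metalloprotease, fell 1.56-fold, from 2816 ± 106 to 1805 ± 330 (limma adjusted p = 0.00774), and Timp3, an inhibitor of such proteases, fell 2.21-fold (limma adjusted p = 1.53e-04). The protease and the inhibitor were thus lower in the same libraries. Scaled by library total, 4 genes of this list rose and 3 fell.

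Of 13 tested partners of the syndecan tails, none rose and 6 fell, against 12.9% and 16.6% of all genes tested. The ERM proteins Ezr, Rdx and Msn, which link membrane proteins to actin, all fell, and Msn had the highest signal of the list, at 1369 ± 16.7 in DMSO and 751 ± 27.0 in SAG (limma adjusted p = 1.77e-04). Src, a tyrosine kinase, fell from 83.3 ± 2.77 to 53.6 ± 5.37, and Cttn, an actin-binding Src substrate, fell from 562 ± 5.34 to 400 ± 9.16. The other gene that fell was Sdcbp (syntenin), named here after its values were seen, which binds the tail directly. Ezr lost its call without DMSO replicate 1, DMSO replicate 3 or SAG replicate 1 (limma adjusted p up to 0.0861), and Sdcbp without any 1 library other than SAG replicate 3 (up to 0.155). The median log2 fold change of the 13 was -0.43 against -0.03 for all genes, and 4 to 8 of them fell when each library was left out in turn. Scaled by library total, 4 fell and none rose.

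Other proteins that can carry heparan sulfate went both ways. Of 7 tested, Spock2 and Tgfbr3 rose and Cd44 and Nrp1 fell, Nrp1 not without DMSO replicate 3 (limma adjusted p = 0.0668). Spock2, a secreted proteoglycan, rose 4.47-fold, from 5.16 ± 0.518 to 23.1 ± 2.92 (limma adjusted p = 4.95e-05). Tgfbr3, betaglycan, a co-receptor for TGF-beta and inhibins, rose 2.66-fold, from 11.3 ± 0.826 to 30.1 ± 1.51 (limma adjusted p = 1.19e-04). Cd44, the hyaluronan receptor, fell 2.15-fold, from 255 ± 5.68 to 119 ± 15.4 (limma adjusted p = 1.48e-04). Hspg2, perlecan of the basement membrane, had the highest signal of the list and did not pass, at 3606 ± 144 and 2909 ± 758 (limma adjusted p = 0.158).

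Of 14 tested growth factors that bind heparin, 2 rose and 5 fell. The ones that rose are the 2 members of one family, Ptn (pleiotrophin) and Mdk (midkine). Ptn was at 8.45, 12.02 and 13.8 in DMSO and 101, 115 and 84.0 in SAG, with no overlap. It rose 8.77-fold, from 11.4 ± 2.70 to 100 ± 15.6 (limma adjusted p = 1.89e-05), while Sdc3, known to bind it, fell in the same libraries. Mdk rose 2.0-fold, from 59.7 ± 3.52 to 119 ± 9.45 (limma adjusted p = 2.4e-04). Hbegf, an EGF-family ligand, fell 2.61-fold, from 89.6 ± 5.48 to 34.4 ± 7.80 (limma adjusted p = 2.91e-04). Fgf2, Pdgfa, Pdgfb and Nrg1 also fell, with less stable calls. Fgf2 and Pdgfa lost them without any 1 library other than SAG replicate 3 (limma adjusted p up to 0.189 and 0.124), Pdgfb without DMSO replicate 3 (0.0652) and Nrg1 without DMSO replicate 1 or 3 (up to 0.0690).

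Of 5 tested FGF receptor genes, Fgfr2 rose, from 56.5 ± 1.55 to 92.4 ± 4.92 (limma adjusted p = 9.93e-04), and Fgfrl1 fell, from 91.5 ± 0.639 to 69.0 ± 2.45, a call lost without any 1 DMSO library (adjusted p up to 0.0654). Among 13 tested Hedgehog genes of the cell surface 6 were called higher and 2 lower, and 4 to 7 higher and 0 to 2 lower with each library left out in turn. Some of these genes reached the mean signal of 1 through 1 group only, among them Hhip through SAG and Lrp2 through DMSO. Calls were lost for Lrp2 without DMSO replicate 3 (limma adjusted p = 0.0693) and for Disp1 without any 1 DMSO library or SAG replicate 1 (up to 0.115). Smo lost its call without any 1 library other than SAG replicate 3 (up to 0.186), and Hhip without DMSO replicate 1 or 3 (up to 0.0963), while it fell under the filter without any 1 SAG library. Gas1, a Hedgehog co-receptor tied to the membrane by a lipid anchor, rose from 26.0 ± 2.15 to 169 ± 32.8. Gpc3, which competes with Patched for Hedgehog ligands, also rose. Over all the listed genes that are no members, 105 were tested, of which 18 rose and 27 fell. Among all genes tested 12.9% rose and 16.6% fell. Of those 45 calls, 25 held with each library left out in turn and 20 were lost without some library.

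**Figure D5:**
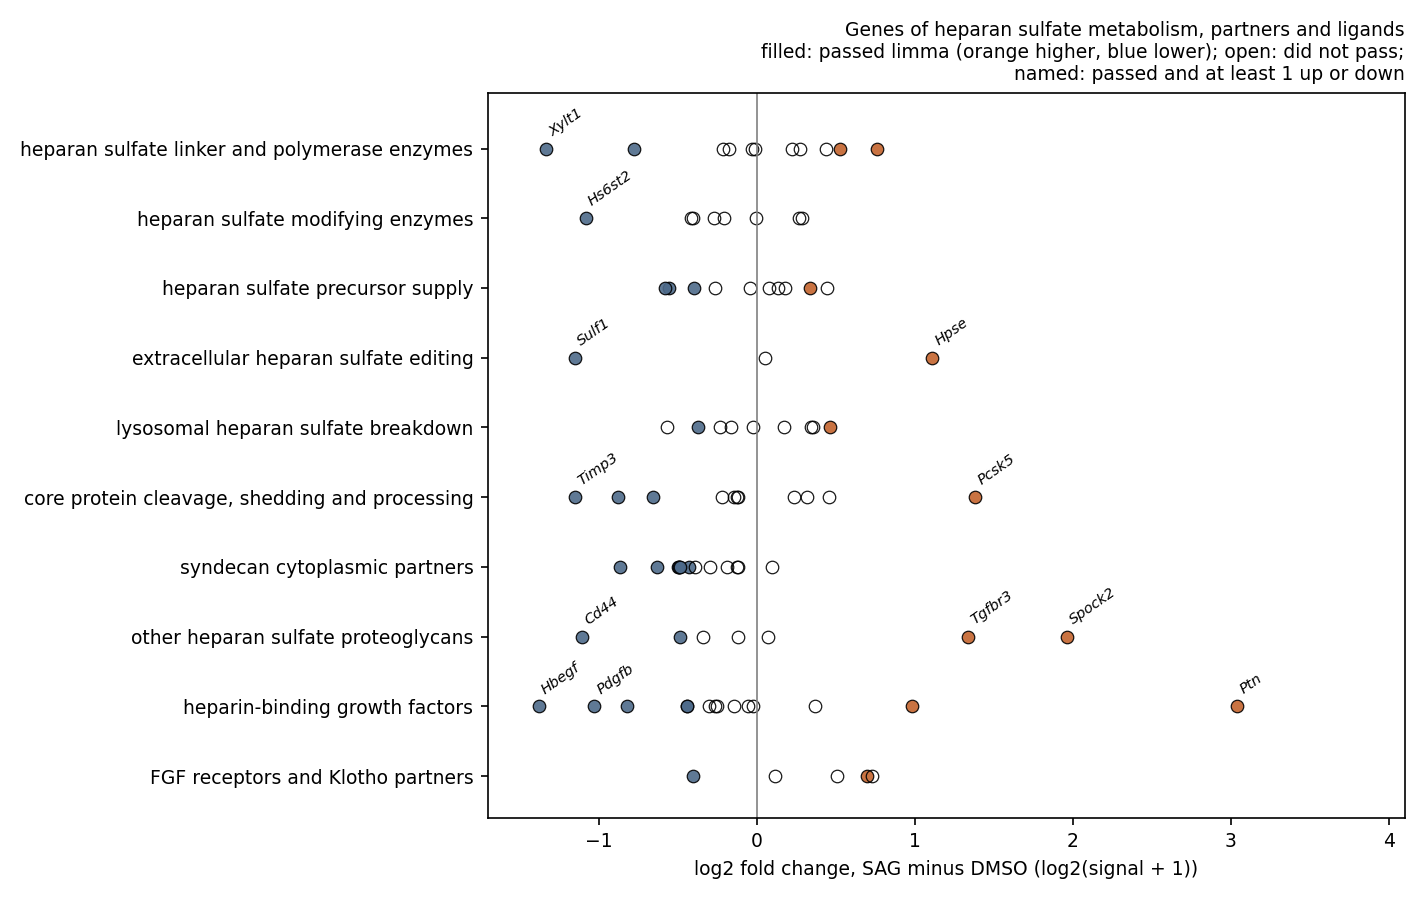
Log2 fold change of SAG against DMSO (horizontal axis) for the tested genes of heparan sulfate metabolism, partners, ligands and FGF receptors, with 1 row per list and 1 point per gene, filled where limma passed. Genes that passed and lie at least 1 from 0 are named. All filled points of the syndecan partners lie below 0, while Pcsk5, Tgfbr3, Spock2 and Ptn lie above 1.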

How the data were processed

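RNA-seq was done on 6 libraries of W-EGFP cells, 3 with DMSO and 3 with SAG, from NEBNext Ultra II Directional libraries per the labels' protocols. The submitters' processing notes list STAR, featureCounts 2.0.0, Trim Galore 0.6.4 and edgeR 2.2.1, on GRCm38 (mm10). Annotation and strand setting: not given in the sources used here. A table of 24505 rows of normalized signal, named as CPM, was deposited by the authors. Its column sums differ between libraries (932712 to 1055620), so a further factor per library is in the values, and how it was set is not given in those sources. All values were whole multiples of 1 step per column within 0.01 (100%), which gave back read counts. The 92 spike-in rows name no gene and were left out. PCR copies are not independent molecules, so intervals and limits on reads cover counting error only.

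From these values log2(signal + 1) was fitted with limma 3.58.1 (trend) in R 4.3.3, with 1 term for group, where the mean signal reached 1. Plain folds are ratios of mean signals; log2 fold changes understate low genes. The step was tested on simulated data. Whether replicates were separate cultures is not stated; p-values cover the spread among these libraries alone, which may be technical. Columns were matched by treatment and number. The members and lists were chosen with earlier results of these data known. Named genes are all members; from each list, up to 5 called genes in each direction with the largest change, and the gene with the highest mean; Gli1, Ptch1, Hhip and Smo; and the 3 genes nearest to the most changed member in each direction. Not every gene that these rules allow is described. Coordinates and exon lengths are from GENCODE M21 on GRCm38, and sequences from RefSeq (GRCm38.p6), in which 7 of 10 members had a window; 3 listed genes (Bpnt2, Ccn1, Ccn2) had no row by that symbol. Alternatives were other pseudocounts, filters, scalings and thresholds, limma variants, a replicate block, edgeR 4.0.16 and DESeq2 1.42.0 on the recovered counts, thinned DMSO reads, exon length by longest transcript, each library left out in turn and, added after seeing the data, array weights.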

Additional observations from a re-analysis of the deposited data

Results flagged for a closer look

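Reads on the synthetic spike-in rows, which no comparison uses, numbered 111 in SAG replicate 1, 54 in SAG replicate 2 and 1205 in SAG replicate 3, above the 0 reads in each of the DMSO libraries. The labels do not mention spike-in RNA. All SAG libraries and no DMSO library held such reads, and depth also split by group. The treatment thus cannot be told apart from a difference in library preparation between the groups. SAG replicate 3, the library with the most, is the one in which Gpc6 (108 against 170 and 167) and Sdc4 (131 against 77.8 and 73.3) departed from the other SAG libraries.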

How the results depend on the processing

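Gpc3 stayed higher and Gpc4 and Sdc3 lower, past the threshold, under every alternative run, with log2 fold changes of 1.32 to 1.65, -0.98 to -0.82 and -1.20 to -0.99. Of 171 refits of single members 156 kept direction and side of the threshold. With array weights 2 members were higher and 5 lower; leaving out 1 library gave 1 to 2 higher and 2 to 5 lower. Of the listed other genes 28 were higher with array weights, and leaving out 1 library gave 12 to 28 higher and 14 to 37 lower; at adjusted p under 0.01, 15 were lower. Scaling by library total moved the median of all genes from -0.03 to 0.10 and the share of calls that were higher from 43.8% to 66.3%; members stayed at 1 higher and 3 lower, and the other listed genes became 26 higher and 18 lower, with Slc26a2, Slc35a3, Ezr, Fgf2, Pdgfa, Fgfrl1 and Disp1 among those that no longer passed. The sign turned for Sdc1 with total scaling (0.023), for Sdc4 with total scaling (0.075), edgeR (0.017) and DESeq2 (0.020) and between -0.33 and 0.087 with 1 library left out, for Sulf2 between -0.092 and 0.21 with 1 library left out, and for Cxcl12 with total scaling (0.085), array weights (0.087) and between -0.15 and 0.066 with 1 library left out; none of these genes passed with all libraries weighted alike, Sdc4 passed with array weights (-0.26, adjusted p = 0.0148), and the cause was not tested. Gpc1 passed with the filter at a mean signal of 5 (limma adjusted p = 0.0493) and with array weights (2.24e-04). With total scaling it did not pass (log2 fold change -0.13, limma adjusted p = 0.327). Over all genes 1625 rose and 2084 fell, 2654 and 3376 with array weights, 2463 and 3373 without SAG replicate 3, and 930 and 1093, 969 and 1136, and 901 and 1086 without DMSO replicates 1, 2 and 3. With the longest transcript as length, Gpc3 held 17.6% and Gpc4 43.1% of the glypican sum in DMSO, Gpc4 20.0% in SAG, Sdc3 47.2% of the syndecan sum in DMSO, and the Gpc3 to Gpc4 ratio was 0.409 in DMSO and 2.31 in SAG. Same-numbered libraries did not deviate together (r = -0.02, 0.03 and -0.00), so the values showed no pairing by number. This check cannot exclude that same-numbered samples had a shared origin. With the replicate block 1549 genes rose and 1976 fell, the members gave 1 higher and 3 lower, and the other listed genes 18 and 27. Depth limits Gpc5, which had 1 read in all 6 libraries.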
